A study of Homo sapiens with 60 samples.

Results

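The genes described here are 8 human UDP-glucuronosyltransferases (UGTs), UGT1A1, UGT1A6, UGT1A9, UGT2B4, UGT2B7, UGT2B10, UGT2B11 and UGT2B15, measured as messenger RNA in HepG2 liver cancer cells given plant extracts. They were taken by gene symbol from a count table of 60675 genes, and all 8 have a row there. Of these, 5 passed the filter on low counts that left 16093 genes for testing, namely UGT1A1, UGT2B4, UGT2B7, UGT2B10 and UGT2B11. UGT1A6, UGT1A9 and UGT2B15 did not pass and are given by level only. Reads from the UGT1A genes are hard to assign to 1 gene, because these genes share their last exons, so the 9 UGT1A rows of the table were also summed. The 7 UGT2B rows, whose genes are close in sequence, were summed in the same way.

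UGTs sit in the membrane of the endoplasmic reticulum and transfer glucuronic acid from UDP-glucuronic acid to small lipophilic molecules, which makes these molecules soluble enough for export into bile or urine. The UGT1A genes arise from 1 locus in which alternative first exons, each with its own promoter, are joined to common last exons, while each UGT2B gene is a separate unit. Members of the UGT1A family are known to be induced through the xenobiotic receptors AHR, PXR and CAR and through the stress-responsive factor NRF2.

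HepG2 is a human hepatocellular carcinoma line, and all libraries come from this line after 24 h of treatment. Water extracts of 4 plants were given, Cimicifugae Rhizoma, Citri Unshius Pericarpium (mandarin peel), Aconiti Lateralis Radix Preparata (processed aconite root) and Bupleuri Radix, and of 3 plant mixtures, Banhasasim-tang, Yijung-tang and Bojungikgi-tang. Each was used at 20, 100 and 500 µg/mL, and a dose has 3 libraries, or 1 for Bojungikgi-tang. With 3 vehicle libraries this makes 60 libraries in all. Vehicle was DMSO, at 0.1% by the samples' treatment entries but at 2% by the series' design text, which also names a wortmannin control, which is not used here, so the DMSO level behind comparisons with vehicle is uncertain. The labels do not say whether libraries of a group come from cultures grown apart, and the p-values thus rest on a spread that may be technical. The titles give all libraries, vehicle included, the same batch name, BatchB. The leading part of the sample codes in the titles groups Cimicifugae with Citri, Aconiti with Bupleuri, and Banhasasim-tang with Yijung-tang. Vehicle has a leading part of its own. These groupings are called sets here, and the labels do not say what they stand for. Set and treatment thus cannot be told apart in comparisons with vehicle. The leading comparison is therefore 500 against 20 µg/mL within an extract.

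Expected counts summed to 17598646 to 30451640 per library, and to 21014795 to 22891342 in the vehicle libraries. All 11 hepatocyte markers were present, with a summed level of 38476 to 46957 CPM across libraries (CPM are counts scaled to a common library size, here with TMM factors). Of 15 markers of blood, endothelial, stromal and other cells, 12 had a median under 1 CPM, and INS was at 0 in all libraries. The others had medians of 55.1 CPM (ACTA2), 44.3 CPM (CD68) and 3.05 CPM (PECAM1). The summed level of the 15 was 87.5 to 119.8 CPM. Vehicle replicate 2 stood apart in 2 of these markers, the leukocyte genes PTPRC and CD3E: it held 152 and 120 counts of them, while no other library held more than 1, so comparisons with vehicle are also given without it. The 2 mitochondrial ribosomal RNAs were also summed, in % of the TMM-scaled library size and thus not as shares of raw counts. With Aconiti they were at 13.7 to 14.2% at 500 µg/mL and 8.70 to 9.46% at 100 µg/mL, against 3.10 to 3.28% at 20 µg/mL. The other groups were at 2.19 to 4.57%. In bulk RNA a change in RNA per cell and a change in the share of cells that make it cannot be told apart.

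HepG2 cells carried mostly UGT2B10, UGT2B7 and 1 gene outside the 8, UGT2A3. Per kilobase of transcript, the mean level over 57 libraries was 33.2 CPM for UGT2A3, 32.0 for UGT2B10, 9.99 for UGT2B7, 1.65 for UGT2B4, 0.244 for UGT2B11 and 0.139 for UGT1A1. UGT2B10, an enzyme of nicotine and tertiary amine N-glucuronidation, had 921 to 2107 counts per library. UGT2B7, which conjugates morphine and other opioids, had 343 to 587 counts. These genes are thus measured far more precisely than the others. UGT2B4, which acts on bile acids, had 32 to 129 counts, and UGT2B11, whose substrates are poorly known, had 3 to 22.7 counts. UGT1A1, the enzyme that conjugates bilirubin, had 0 to 39.1 counts, with a median of 8.49, and passed the filter partly through the groups in which it was high.

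**Figure D1:**
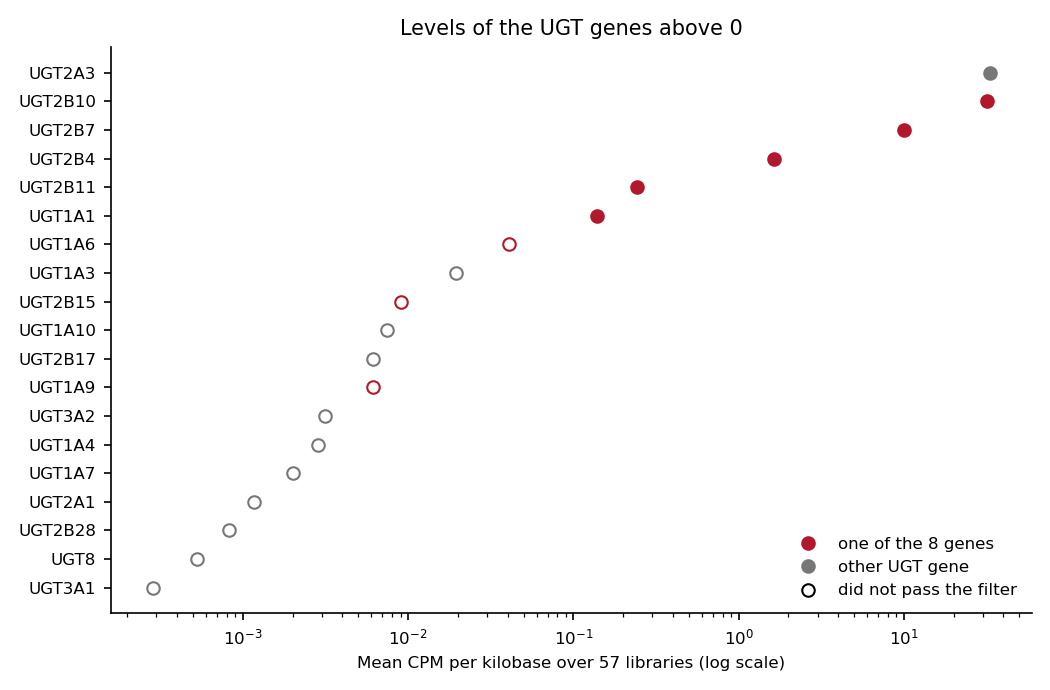
Mean level of each UGT gene with counts above 0, in CPM per kilobase over 57 libraries, on a log axis; filled points passed the filter on low counts and red points are the 8 genes. UGT2A3 (33.2) and UGT2B10 (32.0) lie together at the top, and UGT1A6, UGT2B15 and UGT1A9 lie below every gene that passed.

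The 3 genes that did not pass were near the limit of detection. UGT1A6, an enzyme for simple phenols and serotonin, had 0 to 8.91 counts and was at 0 in 17 of 60 libraries. UGT1A9, which conjugates propofol, was at 0 in 54 libraries and reached 6.3 counts, and UGT2B15, an androgen-conjugating enzyme, was at 0 in 38 libraries and reached 3 counts. A count of 0 allows up to 3 counts, that is 0.0985 to 0.170 CPM at these depths (counting error only). Changes of UGT1A9 and UGT2B15 were therefore not detectable.

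In the GRCh38 annotation (GENCODE release 29) the UGT1A genes share the end of 1 locus on the plus strand of chromosome 2. UGT1A1 spans chr2:233760248-233773299, UGT1A6 spans chr2:233691607-233773300 and UGT1A9 spans chr2:233671853-233773300, so the UGT1A1 span lies inside the others. The UGT2B genes lie on chromosome 4. UGT2B10 spans chr4:68815993-68831196 and UGT2B7 spans chr4:69051363-69112987, both on the plus strand. UGT2B15 (chr4:68646630-68670628), UGT2B11 (chr4:69199951-69214731) and UGT2B4 (chr4:69480165-69526014) are on the minus strand.

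Because UGT1A and UGT2B10 counts moved in opposite directions with dose, while UGT2B7 did not pass the test, bases before their start sites are shown, from the RefSeq promoter table (GRCh38.p14), which holds 7 of the 8 genes and not UGT2B4. The windows end at the start site except for UGT1A1 (the first 200 of its 250 bases) and UGT1A6 (the first of 2 listed starts, with the first 150 of its 250 bases). The RefSeq start used for UGT2B7 lies inside the gene's span above. The positions are chr2:233760020-233760219 for UGT1A1, chr2:233691452-233691601 for UGT1A6, chr4:68815744-68815993 for UGT2B10 and chr4:69096224-69096473 for UGT2B7, all on the plus strand, and chr4:69214749-69214998 on the minus strand for UGT2B11. Sequences run 5′ to 3′, and capitals mark matches, on either strand, to TNGCGTG (the core of the AHR response element, where N is any base), TGACNNNGC (the core of the antioxidant response element bound by NRF2) or TATAAA (letters of the TATA box).
UGT1A1: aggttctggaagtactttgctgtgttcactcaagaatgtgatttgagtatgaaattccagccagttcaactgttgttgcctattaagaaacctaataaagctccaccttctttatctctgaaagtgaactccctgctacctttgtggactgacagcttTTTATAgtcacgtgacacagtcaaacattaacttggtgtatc
UGT1A6: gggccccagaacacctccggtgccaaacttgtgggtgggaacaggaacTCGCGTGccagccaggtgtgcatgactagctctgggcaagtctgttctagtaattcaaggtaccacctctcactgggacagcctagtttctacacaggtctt
UGT2B10: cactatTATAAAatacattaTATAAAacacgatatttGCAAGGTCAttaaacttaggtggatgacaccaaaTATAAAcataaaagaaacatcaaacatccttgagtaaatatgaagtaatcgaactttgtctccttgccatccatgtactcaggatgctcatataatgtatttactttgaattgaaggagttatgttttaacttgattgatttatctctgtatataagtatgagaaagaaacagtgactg
UGT2B11: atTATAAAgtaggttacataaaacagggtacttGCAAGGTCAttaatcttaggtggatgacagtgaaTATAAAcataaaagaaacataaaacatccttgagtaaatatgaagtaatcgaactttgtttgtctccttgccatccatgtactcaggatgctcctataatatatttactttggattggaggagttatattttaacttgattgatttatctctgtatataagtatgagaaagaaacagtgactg
UGT2B7: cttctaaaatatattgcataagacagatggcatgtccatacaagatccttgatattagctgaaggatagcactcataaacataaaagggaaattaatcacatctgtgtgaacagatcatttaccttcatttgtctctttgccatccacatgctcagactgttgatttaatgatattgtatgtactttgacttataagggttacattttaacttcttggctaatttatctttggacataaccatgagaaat

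UGT1A1 holds a TATAAA match on the other strand and neither response element in this window. The bases of its window that are not printed hold a run of TA repeats, which is no match to TATAAA. UGT1A6 holds TNGCGTG, which 4.52% of all 35116 windows of 250 bases in the table hold. The window of its second listed start, not printed, holds TGACNNNGC at 98 to 90 bases before the start. UGT2B10 and UGT2B11 each hold TGACNNNGC on the other strand, which 10.9% of windows hold, and TATAAA, which 10.7% hold. The UGT2B7 window holds none of the 3 motifs. UGT2B10 and UGT2B11 share 90.2% of aligned bases here, against 62.7% for UGT2B10 and UGT2B7. A match is a description of these letters and not evidence of binding.

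UGT1A transcripts rose with dose in 3 extracts. The UGT1A sum held 36, 34 and 40 counts in the 3 libraries with Cimicifugae at 500 µg/mL, against 13, 8 and 15 counts at 20 µg/mL. All libraries at the high dose lay above all at the low dose, and the sum rose 3.69-fold, a log2 fold change of 1.88 ± 0.26 (SE, n = 3 per group; edgeR adjusted p = 5.98e-08). With Aconiti the sum was 49.0, 43.0 and 41.0 counts at 500 µg/mL, against 17, 18 and 20 at 20 µg/mL, and rose by a log2 fold change of 1.46 ± 0.24 (edgeR adjusted p = 2.15e-06). With Banhasasim-tang it was 13, 17 and 23 counts at 500 µg/mL, against 5, 8 and 6 at 20 µg/mL, a log2 fold change of 1.46 ± 0.33 (edgeR adjusted p = 0.00113). The groups did not overlap in any of these 3 extracts.

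In the other 3 extracts the sum did not pass the test. The log2 fold change was 0.80 ± 0.33 with Citri (adjusted p = 0.338) and 1.09 ± 0.34 with Yijung-tang (adjusted p = 0.0655), both with no overlap between doses. It was 0.18 ± 0.32 with Bupleuri (adjusted p = 0.779), where the groups overlapped. As a background, the share of all tested genes called in either direction between 500 and 20 µg/mL was 39.2% for Cimicifugae, 1.65% for Citri, 37.2% for Aconiti, 18.8% for Bupleuri, 15.1% for Banhasasim-tang and 3.77% for Yijung-tang.

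UGT1A1 accounted for most of the UGT1A counts in the responding groups. Its share of the summed UGT1A counts was 62.5% with Cimicifugae at 500 µg/mL and 66.3% at 20 µg/mL. With Aconiti the share was 78.4% at 500 µg/mL and 75.9% at 20 µg/mL. With Banhasasim-tang it was lower at 500 µg/mL, 75.6% against 92.2% at 20 µg/mL. UGT1A3 held 16.8% and UGT1A10 8.0% of the UGT1A counts with Cimicifugae at 500 µg/mL. At 20 µg/mL of that extract UGT1A10 held 2.8% and UGT1A3 had no counts. UGT1A1 averaged 1.19 ± 0.32 CPM with Cimicifugae at 500 µg/mL and 0.335 ± 0.021 CPM at 20 µg/mL (SD, n = 3 each), a log2 fold change of 1.77 ± 0.42 (edgeR adjusted p = 0.000562). With Aconiti it averaged 1.53 ± 0.32 CPM at 500 µg/mL and 0.537 ± 0.056 CPM at 20 µg/mL, a log2 fold change of 1.49 ± 0.36 (edgeR adjusted p = 0.000829). In Citri, Banhasasim-tang and Yijung-tang the libraries of both doses did not overlap either, with log2 fold changes of 1.096 ± 0.492, 1.13 ± 0.48 and 1.35 ± 0.53, but no test passed. UGT1A6 was not tested; its summed counts over 3 libraries were 12.3 with Cimicifugae at 500 µg/mL and 11.1 at 20 µg/mL, and 18.3 with Aconiti at 500 µg/mL and 8.83 at 20 µg/mL. How the estimator split reads among the UGT1A rows is uncertain, so the sum is the firmer measure.

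**Figure D2:**
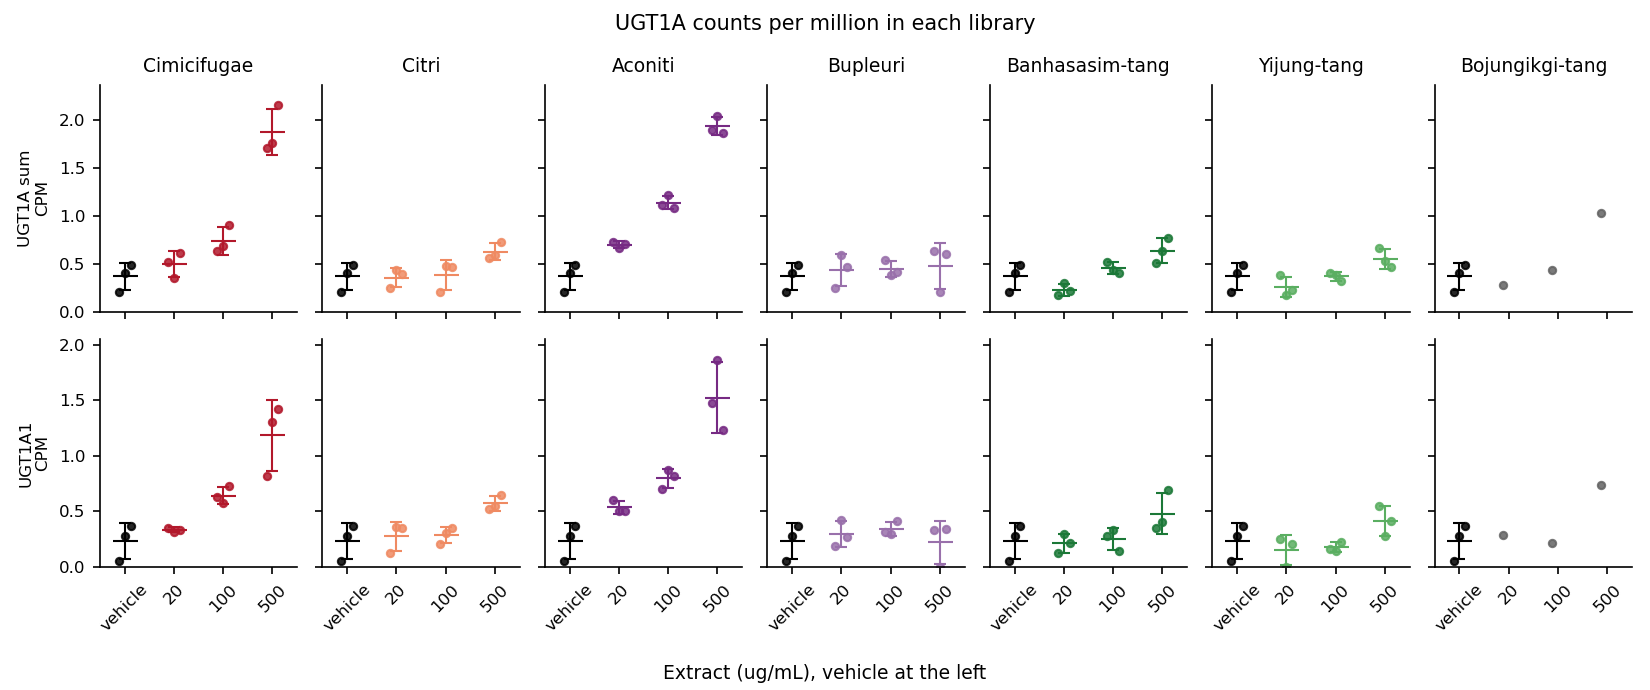
Level of the UGT1A sum (top) and of UGT1A1 (bottom) in CPM for each library (points), with group mean and SD (bars), by extract, with the same 3 vehicle libraries at the left of each panel. With Cimicifugae and Aconiti the 3 libraries at 500 µg/mL sit at 1.72 to 2.16 and 1.87 to 2.05 CPM of the UGT1A sum, above every library of any other group.

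Ordered by mean level of the UGT1A sum, the 19 replicated groups ran from Aconiti at 500 µg/mL (1.94 ± 0.10 CPM) and Cimicifugae at 500 µg/mL (1.88 ± 0.24 CPM), whose libraries overlapped, to Aconiti at 100 µg/mL (1.14 ± 0.07 CPM), which stood apart from its neighbours on both sides. The other 16 groups ran from Cimicifugae at 100 µg/mL (0.744 ± 0.143 CPM) to Banhasasim-tang at 20 µg/mL (0.232 ± 0.062 CPM), each overlapping the next in this order. Even at its highest the UGT1A sum was 1.28% of all UGT counts with Aconiti at 500 µg/mL, against 0.387% at 20 µg/mL.

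UGT2B10 fell with dose in 3 extracts. Its level was 52.3, 49.9 and 49.8 CPM with Cimicifugae at 500 µg/mL, against 71.1, 71.0 and 65.2 CPM at 20 µg/mL, a log2 fold change of -0.45 ± 0.05 (edgeR adjusted p = 8.28e-11). With Aconiti it was 43.2, 43.9 and 42.4 CPM at 500 µg/mL, against 63.3, 58.2 and 58.9 CPM at 20 µg/mL, a log2 fold change of -0.48 ± 0.05 (edgeR adjusted p = 1.41e-11). In both extracts every library at 500 µg/mL lay below every library at 20 µg/mL. With Yijung-tang the fall was smaller, 58.1 ± 2.2 CPM at 500 µg/mL and 64.8 ± 1.2 CPM at 20 µg/mL, a log2 fold change of -0.16 ± 0.05 (edgeR adjusted p = 0.0407). This last call was lost (adjusted p = 0.0717 to 0.208) when any of the 3 libraries at 20 µg/mL or replicate 1 or 3 at 500 µg/mL was left out.

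In the other extracts UGT2B10 did not pass the test. The log2 fold change was -0.14 ± 0.05 with Citri, -0.04 ± 0.05 with Banhasasim-tang and -0.0047 ± 0.05 with Bupleuri. The libraries at 500 µg/mL still lay below those at 20 µg/mL with Citri (59.5 to 63.2 against 66.1 to 67.9 CPM) and Banhasasim-tang (62.3 to 63.7 against 64.3 to 65.3 CPM), as they did with Yijung-tang, and overlapped them with Bupleuri alone of the 6 extracts. UGT2B10 shares reads with its near copies UGT2B11 and UGT2B28, and the sum of the 3 rows gave log2 fold changes of -0.45 with Cimicifugae, -0.48 with Aconiti and -0.16 with Yijung-tang.

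UGT2B4 fell in 2 of the same extracts. It had 2.67, 2.497 and 3.08 CPM with Cimicifugae at 500 µg/mL, against 4.10, 3.93 and 3.43 CPM at 20 µg/mL, a log2 fold change of -0.48 ± 0.15 (edgeR adjusted p = 0.00746). With Aconiti it had 1.86, 1.53 and 1.55 CPM at 500 µg/mL, against 2.68, 3.14 and 2.74 CPM at 20 µg/mL, a log2 fold change of -0.79 ± 0.16 (edgeR adjusted p = 7.66e-05). The groups did not overlap in either, nor with Citri, where the level was 3.13 to 3.75 CPM at 500 µg/mL and 4.12 to 4.21 CPM at 20 µg/mL. The log2 fold changes in the other 4 extracts were -0.29 with Citri, -0.22 with Banhasasim-tang, 0.02 with Bupleuri and 0.11 with Yijung-tang, and none passed the test. The UGT2B sum, made up mostly of UGT2B10, had a log2 fold change of -0.33 ± 0.04 with Cimicifugae and with Aconiti alike, and passed in no other extract.

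UGT2B7 and UGT2B11 were called in none of the 6 extracts between 500 and 20 µg/mL. For UGT2B7 the log2 fold changes were between -0.02 and 0.12, with an SE of 0.07. Its level was 18.5, 18.6 and 21.4 CPM with Cimicifugae at 500 µg/mL and 18.4, 18.6 and 19.5 CPM at 20 µg/mL, so the groups overlapped. They also overlapped with Citri, Banhasasim-tang and Yijung-tang. The libraries at 500 µg/mL lay above those at 20 µg/mL with Aconiti (18.30 to 20.59 against 17.13 to 17.97 CPM) and Bupleuri (19.02 to 20.00 against 18.11 to 18.45 CPM), with no call. With Aconiti its mean plus and minus 2 SE ran from a log2 fold change of -0.02 to 0.27, which does not reach the fall of UGT2B10 in the same libraries. UGT2B11 was too low for a firm statement: its log2 fold changes were between -0.58 and 0.47 with an SE of 0.34 to 0.43. UGT2A3, which like UGT2B4 is known to act on bile acids, fell by 0.15 ± 0.05 on the log2 scale with Cimicifugae (edgeR adjusted p = 0.0127) and by 0.24 ± 0.05 with Aconiti (edgeR adjusted p = 4.68e-05). The Cimicifugae call was lost without replicate 2 at 500 µg/mL (log2 fold change -0.11, adjusted p = 0.105).

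**Figure D3:**
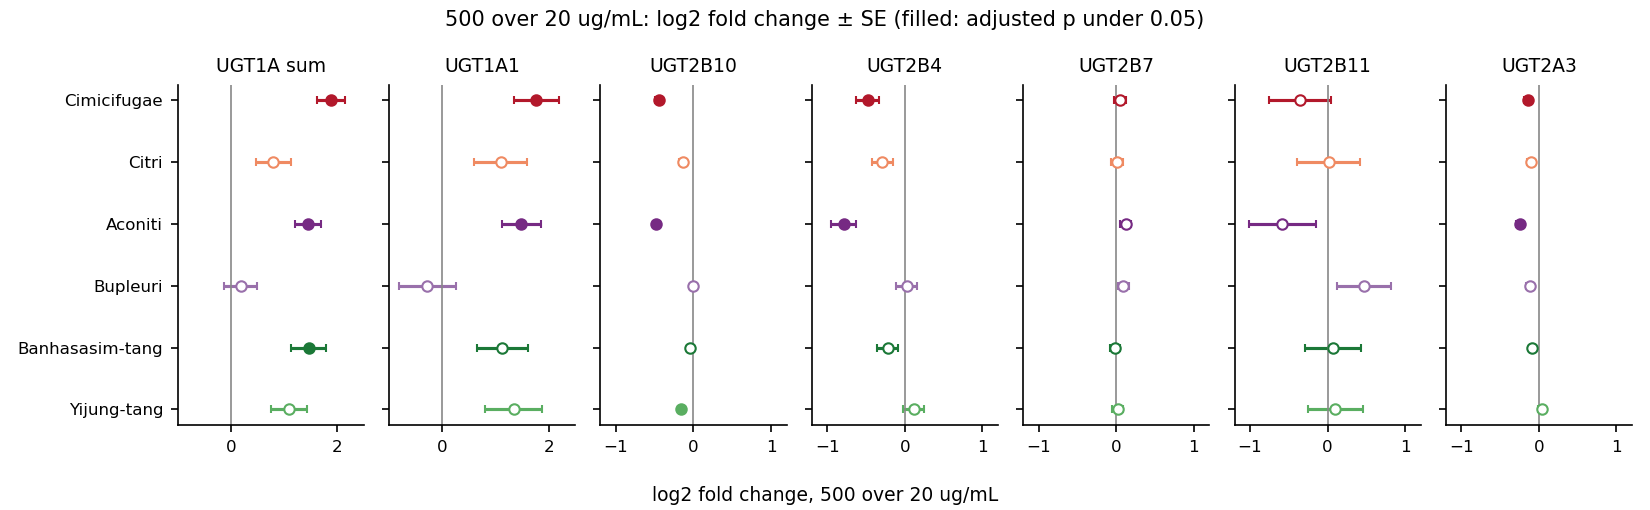
Log2 fold change of 500 over 20 µg/mL with its SE for the UGT1A sum, the 5 tested genes and UGT2A3, in 6 extracts; filled points have an adjusted p under 0.05. The UGT1A sum is at 1.88 with Cimicifugae and 1.46 with Aconiti, UGT2B10 at -0.45 and -0.48, and UGT2B7 within 0.12 of 0 in all 6.

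The middle dose gave a graded picture for Aconiti. UGT2B10 had 54.2, 50.3 and 48.0 CPM at 100 µg/mL, below all 3 libraries at 20 µg/mL, a log2 fold change of -0.24 ± 0.05 (edgeR adjusted p = 0.000473). UGT2B4 was already lower, with a log2 fold change of -0.67 ± 0.15 (edgeR adjusted p = 0.00380), a call lost without replicate 2 at 100 µg/mL (-0.56, adjusted p = 0.0532). The UGT2B sum had a log2 fold change of -0.19 ± 0.04, lost without replicate 3 at 100 µg/mL (-0.15, adjusted p = 0.0626), and UGT2A3 of -0.17 ± 0.05, lost without replicate 2 or 3 at 100 µg/mL or replicate 1 or 2 at 20 µg/mL (adjusted p = 0.0648 to 0.105). The UGT1A sum held 29, 32 and 28 counts at 100 µg/mL, above all 3 libraries at 20 µg/mL, but did not pass the test in Aconiti or any other extract (lowest adjusted p = 0.105). In the other 5 extracts no UGT passed between 100 and 20 µg/mL. The share of all genes called at this step was 1.29% for Cimicifugae, 0.0249% for Citri, 5.68% for Aconiti, 0.162% for Bupleuri, 0.0124% for Banhasasim-tang and 1.24% for Yijung-tang.

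**Figure D4:**
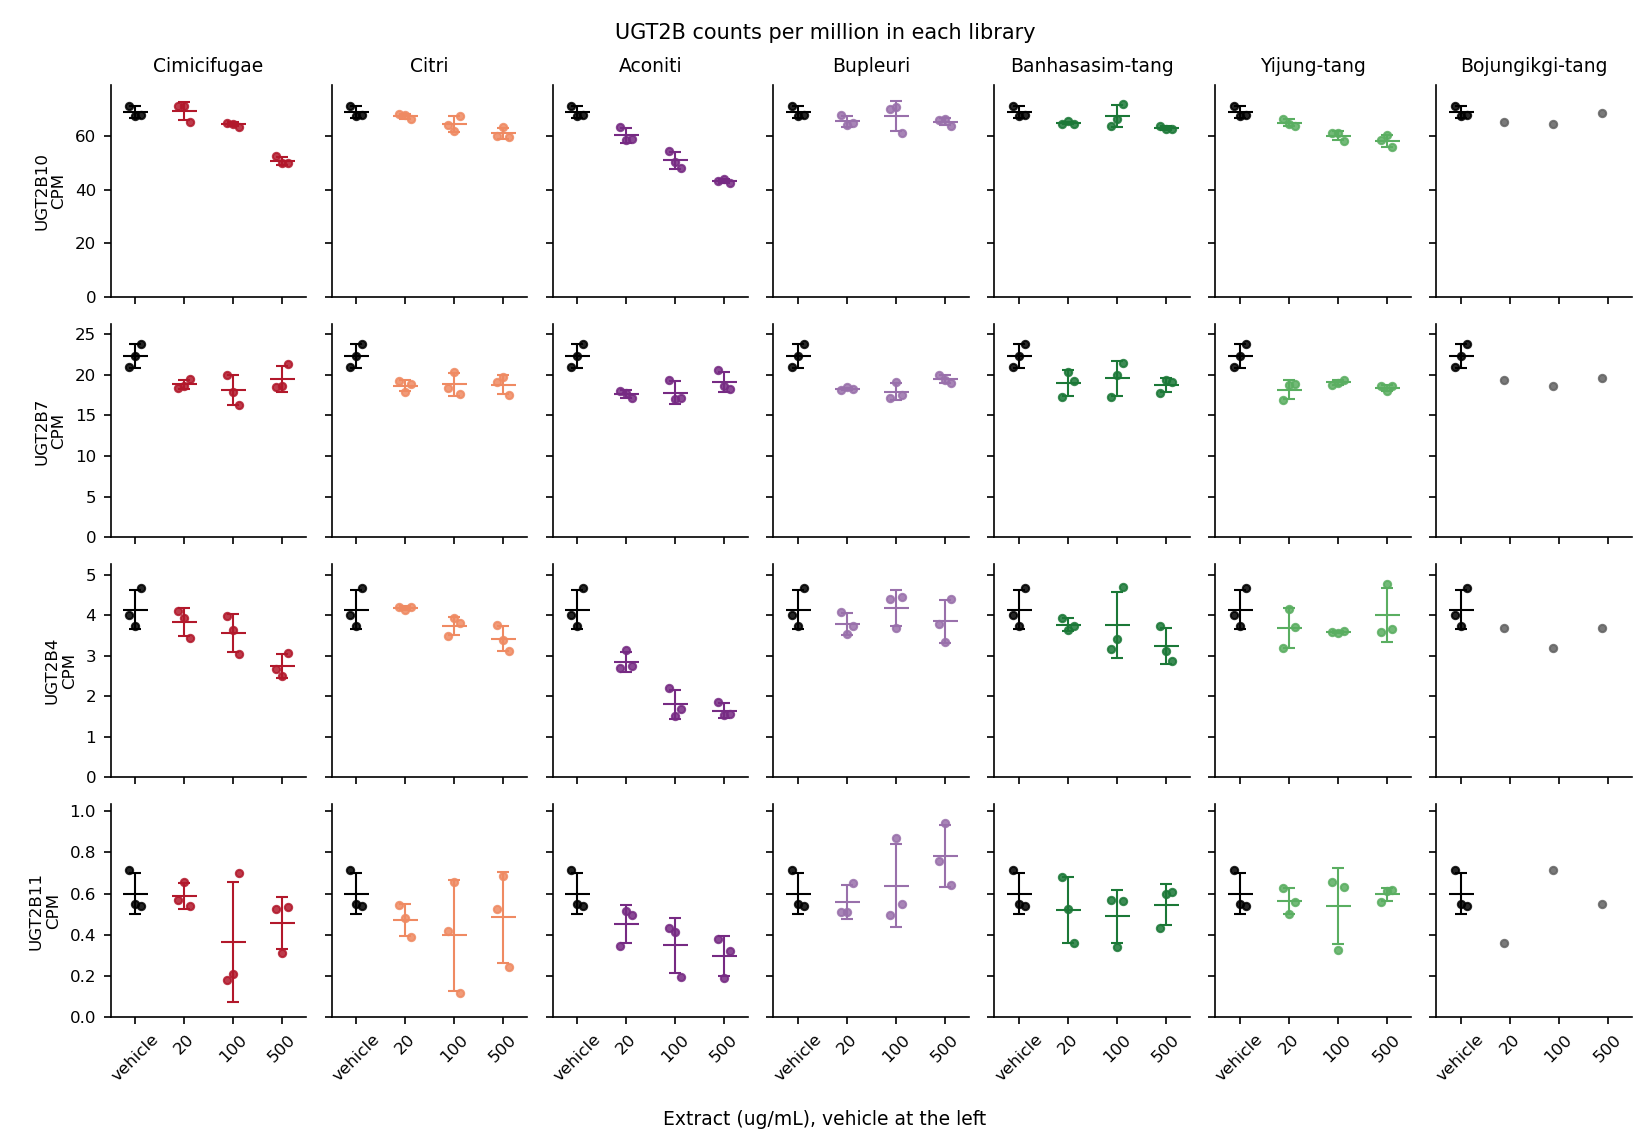
Level in CPM of UGT2B10, UGT2B7, UGT2B4 and UGT2B11 in each library (points), with group mean and SD (bars), by extract and dose, with the same 3 vehicle libraries at the left of each panel. UGT2B10 steps down with Aconiti to 43.2 CPM at 500 µg/mL, while UGT2B7 stays between 16.3 and 21.4 CPM in every library with an extract.

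Extracts of 1 set differed at 500 µg/mL. The UGT1A sum was 1.94 ± 0.10 CPM with Aconiti and 0.483 ± 0.240 CPM with Bupleuri, a log2 fold change of 1.98 ± 0.26 (edgeR adjusted p = 2.52e-08). UGT1A1, which held 46.9% of the UGT1A counts with Bupleuri and was at 0 in 1 of its 3 libraries, was higher with Aconiti, at 1.53 ± 0.32 CPM, than with Bupleuri, at 0.224 ± 0.194 CPM, by a log2 fold change of 2.66 ± 0.42 (edgeR adjusted p = 2.01e-06). UGT2B10 was lower with Aconiti, at 43.2 ± 0.8 CPM, than with Bupleuri, at 65.2 ± 1.3 CPM (log2 fold change -0.59 ± 0.05), and so was UGT2B4, at 1.65 ± 0.19 and 3.85 ± 0.53 CPM (log2 fold change -1.22 ± 0.15). UGT2B11 was lower too, at 0.296 ± 0.096 CPM with Aconiti and 0.780 ± 0.151 CPM with Bupleuri (log2 fold change -1.34 ± 0.40, edgeR adjusted p = 0.00917), a call lost without replicate 2 of either extract (adjusted p = 0.0603 and 0.0524). Of all genes, 23.5% were called between these extracts.

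With Cimicifugae against Citri at 500 µg/mL, UGT2B10 was at 50.7 ± 1.4 and 60.9 ± 2.0 CPM (log2 fold change -0.26 ± 0.05, edgeR adjusted p = 1.35e-05). The UGT1A sum was at 1.88 ± 0.24 CPM with Cimicifugae and 0.630 ± 0.088 CPM with Citri, a log2 fold change of 1.56 ± 0.26 (edgeR adjusted p = 1.44e-06). UGT1A1 alone was higher by 1.01 ± 0.39 (edgeR adjusted p = 0.0311), a call lost without replicate 1 or 2 of Citri or 2 or 3 of Cimicifugae (adjusted p = 0.0751 to 0.121). Between Banhasasim-tang and Yijung-tang no UGT passed the test: the difference in log2 UGT2B10 was 0.11 ± 0.05 and in the log2 UGT1A sum 0.21 ± 0.28, with an interval of 2 SE on either side that reaches 0.78. The shares of all genes called were 41.8% for Cimicifugae against Citri and 14.9% for Banhasasim-tang against Yijung-tang.

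The dose effects themselves differed between extracts of a set. The log2 fold change of UGT2B10 at 500 over 20 µg/mL was lower with Cimicifugae than with Citri (difference -0.30 ± 0.07, edgeR adjusted p = 0.000385) and lower with Aconiti than with Bupleuri (difference -0.47 ± 0.07, edgeR adjusted p = 6.52e-07). For UGT2B4 the difference was -0.81 ± 0.21 between Aconiti and Bupleuri (edgeR adjusted p = 0.00609) and -0.19 ± 0.20 between Cimicifugae and Citri (not called). For the UGT1A sum it was 1.27 ± 0.40 between Aconiti and Bupleuri (edgeR adjusted p = 0.0320) and 1.08 ± 0.44 between Cimicifugae and Citri (adjusted p = 0.0696). The call for Aconiti and Bupleuri was lost by DESeq2 (adjusted p = 0.0869), with no filter (0.138), with only both extracts (0.0779), and when replicate 2 of either at 500 µg/mL or replicate 2 or 3 of either at 20 µg/mL was left out. Between Banhasasim-tang and Yijung-tang no difference of a UGT was called. That of UGT2A3 was called by edgeR after a trend on transcript GC content was removed from each library (-0.16, adjusted p = 0.0191). It was also called without replicate 1 of Yijung-tang at 500 µg/mL (-0.20, adjusted p = 0.0397). For the UGT1A sum the difference ran from 0.0034 to 0.59 with single libraries left out. Of all genes, 28.2% were called for Cimicifugae and Citri, 10.2% for Aconiti and Bupleuri and 12.1% for Banhasasim-tang and Yijung-tang.

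Against vehicle the strongest responses were again those of Aconiti and Cimicifugae. With Aconiti at 500 µg/mL the UGT1A sum was 1.94 ± 0.10 CPM, against 0.372 ± 0.144 CPM in vehicle, a log2 fold change of 2.37 ± 0.28. UGT2B10 was 43.2 ± 0.8 CPM, against 68.6 ± 2.2 CPM in vehicle (log2 fold change -0.67 ± 0.05), and UGT2B4 was 1.65 ± 0.19 CPM, against 4.14 ± 0.48 CPM (log2 fold change -1.32 ± 0.16). With Cimicifugae at 500 µg/mL the log2 fold changes were 2.33 ± 0.28 for the UGT1A sum, -0.44 ± 0.05 for UGT2B10 and -0.59 ± 0.15 for UGT2B4. Each of these 6 passed the edgeR test. Even at 20 µg/mL Aconiti lay below vehicle in UGT2B10 (log2 fold change -0.19 ± 0.05) and UGT2B4 (-0.53 ± 0.14), and above it in the UGT1A sum (0.92 ± 0.31, edgeR adjusted p = 0.0231). The UGT2B10 call was lost after a trend on transcript GC content was removed from each library (-0.06, adjusted p = 0.341). The UGT1A sum's call was lost without vehicle replicate 1 (0.63, adjusted p = 0.203) or replicate 1 or 3 at 20 µg/mL (adjusted p = 0.0503 and 0.0607). That call was also lost by DESeq2 (adjusted p = 0.0623). By edgeR it was lost with no filter (adjusted p = 0.0835) and with only the libraries compared and vehicle (adjusted p = 0.0503).

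Over 18 comparisons with vehicle, which share the same 3 vehicle libraries, the UGT1A sum rose in 6 and fell in 0. Without vehicle replicate 2, the library with leukocyte transcripts, it rose in 5, and without vehicle replicate 1 in 3. By DESeq2 it rose in 4. UGT2B10 fell in 8 of 18, in 8 without vehicle replicate 2 and in 7 without vehicle replicate 1, but in 3 with the GC trend removed. UGT2B4 fell in 5 of 18 and in 5 without vehicle replicate 2. It fell in 4 without vehicle replicate 1 or 3, with the GC trend removed or by DESeq2.

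UGT2B7 and UGT2A3 were lower than vehicle in all 18 comparisons. UGT2B7 was 17.6 to 19.6 CPM in the means of the 18 groups with an extract, against 20.9, 22.3 and 23.8 CPM in the vehicle libraries, with log2 fold changes of -0.34 to -0.19. It was lower already at 20 µg/mL of every extract. UGT2A3 was 121, 117 and 121 CPM in vehicle, above all libraries of all 18 groups, with log2 fold changes of -0.50 to -0.21. This fall of UGT2B7 depended on the processing: the count of calls was 17 without vehicle replicate 2 and 8 without vehicle replicate 3, and it was 2 after the GC trend was removed, which left log2 fold changes of -0.21 to -0.04. For UGT2A3 it stayed at 18 without any 1 vehicle library and was 13 after the GC trend was removed. The vehicle is in a set of its own, so set and treatment cannot be told apart here.

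The background against vehicle was high. At 20 µg/mL the share of all genes called was 19% for Cimicifugae, 19.3% for Citri, 31.2% for Aconiti, 22% for Bupleuri, 28.4% for Banhasasim-tang and 27.1% for Yijung-tang. At 100 µg/mL it was 29.5% for Cimicifugae, 22% for Citri, 37.5% for Aconiti, 26.3% for Bupleuri, 29.7% for Banhasasim-tang and 33.3% for Yijung-tang. At 500 µg/mL it was 45.8% for Cimicifugae, 22.5% for Citri, 47.4% for Aconiti, 35.7% for Bupleuri, 34.7% for Banhasasim-tang and 32.6% for Yijung-tang.

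Bojungikgi-tang, with 1 library per dose and so no test, had a UGT1A sum of 8, 11 and 28 counts at 20, 100 and 500 µg/mL. As levels these are 0.287, 0.438 and 1.03 CPM, with exact 95% Poisson intervals, which cover counting error only, of 0.124 to 0.565 CPM at 20 µg/mL and 0.687 to 1.49 CPM at 500 µg/mL. Those intervals do not overlap. UGT2B10 was at 65.2, 64.3 and 68.4 CPM over the 3 doses, with intervals that overlap.

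Other genes of the glucuronidation pathway were read from lists of the steps around the enzymes, all at 500 over 20 µg/mL. Of all tested genes, the share that rose was 19.5% with Cimicifugae, 0.727% with Citri, 19.2% with Aconiti, 9.9% with Bupleuri, 8.6% with Banhasasim-tang and 1.65% with Yijung-tang. The share that fell was 19.7% with Cimicifugae, 0.92% with Citri, 18.1% with Aconiti, 8.89% with Bupleuri, 6.52% with Banhasasim-tang and 2.12% with Yijung-tang. UGDH, which makes UDP-glucuronic acid from UDP-glucose, rose with dose in all 6 extracts, by a log2 fold change of 0.11 ± 0.03 with Cimicifugae, 0.26 ± 0.03 with Citri, 0.24 ± 0.03 with Aconiti, 0.14 ± 0.03 with Bupleuri, 0.20 ± 0.03 with Banhasasim-tang and 0.29 ± 0.03 with Yijung-tang. SLC35D1, which carries UDP-glucuronic acid into the endoplasmic reticulum, fell by 0.50 ± 0.05 with Cimicifugae, 0.34 ± 0.05 with Aconiti and 0.35 ± 0.05 with Bupleuri. Of 9 tested genes of this supply step, 2 rose and 4 fell with Cimicifugae, 4 rose and 3 fell with Aconiti, and the medians were 0.00 and 0.05, close to the 0.00 of all genes.

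ABCC2, the canalicular conjugate pump, rose in all 6 extracts, with log2 fold changes of 1.06 ± 0.05 with Cimicifugae, 0.36 ± 0.05 with Citri, 1.199 ± 0.054 with Aconiti, 0.65 ± 0.05 with Bupleuri, 0.59 ± 0.05 with Banhasasim-tang and 0.29 ± 0.05 with Yijung-tang. ABCC3, the basolateral pump, rose by 0.47 ± 0.06 with Cimicifugae and 0.74 ± 0.05 with Aconiti. Of 6 tested exporters and uptake carriers, 4 rose and 1 fell in each of these extracts, with medians of 0.48 and 0.67 against 0.00 over all genes. On the disposal side, RGN, which acts on glucuronate-derived lactones, fell by 0.46 ± 0.06 with Cimicifugae and 0.90 ± 0.06 with Aconiti, and 4 of 7 tested genes of that list fell in each.

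Among known regulators of UGT genes, NR1H4, the bile acid receptor FXR that is known to act on UGT2B4, fell in 4 extracts. Its level was 17.4 CPM with Cimicifugae at 500 µg/mL and 62.0 CPM at 20 µg/mL, and 17.4 CPM with Aconiti at 500 µg/mL and 59.3 CPM at 20 µg/mL. With Bupleuri NR1H4 fell by 0.98 ± 0.05 on the log2 scale, and the log2 fold change of UGT2B4 was 0.02 ± 0.13. Whether NR1H4 plays a part in the level of UGT2B4 in these cells was not tested. FOXA1, a liver pioneer factor, fell by 0.70 ± 0.04 with Cimicifugae and 0.86 ± 0.04 with Aconiti. With Aconiti AHR rose by 0.47 ± 0.05. Of 14 tested regulators, 3 rose and 6 fell with each of Cimicifugae and Aconiti, where the 3 that rose are close to the share of all genes that rose (19.5% and 19.2%).

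Targets of AHR and NRF2 were called higher in extracts with and without a call of the UGT1A sum, in numbers that varied for AHR. Whether AHR or NRF2 plays a part in the UGT1A changes was not tested. CYP1A1, the sentinel AHR target, was 569 ± 11 CPM with Cimicifugae at 500 µg/mL and 19.8 ± 1.7 CPM at 20 µg/mL, and 988 ± 16 CPM with Aconiti at 500 µg/mL and 132 ± 37 CPM at 20 µg/mL. With Bupleuri, where the UGT1A sum did not pass, CYP1A1 was 34.0 ± 1.5 CPM at 500 µg/mL and 11.6 ± 0.9 CPM at 20 µg/mL, a log2 fold change of 1.54 ± 0.12. Of 6 tested AHR targets 5 rose with Cimicifugae and with Aconiti, 3 with Citri and with Yijung-tang, and 2 with Bupleuri and with Banhasasim-tang. Of 10 NRF2 targets 8 rose in 5 extracts and 9 with Aconiti, led by AKR1B10, an aldo-keto reductase, with log2 fold changes of 0.70 to 1.74. Of 4 tested PXR and CAR targets, 4 rose with Cimicifugae and 3 rose with Aconiti, where CYP3A7 fell by 0.32 ± 0.12.

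The sulfotransferases, which conjugate many of the same substrates, changed in both directions. SULT2A1, the steroid and bile acid sulfotransferase, fell by 0.69 ± 0.05 with Cimicifugae and 0.70 ± 0.05 with Aconiti, and rose by 0.25 ± 0.05 with Yijung-tang. SULT1A1, a phenol sulfotransferase, rose by 0.31 ± 0.05 with Cimicifugae. Hepatocyte markers moved as well: 6 of 11 fell with Cimicifugae and 7 with Aconiti, where 19.7% and 18.1% of all tested genes fell. The rest were not called lower, which covers both markers with no call and any called higher. FGA, a fibrinogen chain among those that fell, was lower by 0.44 ± 0.03 and 1.38 ± 0.03. The summed level of the 11 was 40809 to 42164 CPM with Cimicifugae at 500 µg/mL and 46053 to 46522 CPM at 20 µg/mL. With Aconiti it was 38476 to 39485 CPM at 500 µg/mL and 42823 to 44568 CPM at 20 µg/mL. Of 9 tested signs of RNA quality, 6 rose with Cimicifugae and 7 with Aconiti, among them MT-RNR1 by a log2 fold change of 0.57 ± 0.06 and 2.77 ± 0.06. Whether these changes play a part in the UGT results was not tested.

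Across the 19 group means, among 10187 protein-coding genes outside the UGT family with a mean of at least 5 CPM, the gene whose level was most like that of the UGT1A sum was CYP1A1 (Pearson r = 0.95), followed by EDC3 and IFNLR1 (0.945 and 0.944). Across the 12 differences from 20 µg/mL, KCNG3 (r = 0.95), CCSER2 and TMEM41B came first and CYP1A1 was at 0.75. For UGT2B10 the most alike genes over the group means were SCN1A, C5 and CPB2 (r = 0.97, 0.96 and 0.96), and SCN1A and C5 also led over the differences (0.98 and 0.97). For UGT2B7 they were TMEM14C, CAPZA2 and MICOS10 (r = 0.89 each). UGT1A sum and UGT2B10 had r = -0.85 over the group means, and UGT2B7 and UGT2B10 had r = 0.13. These values describe groups that share libraries, sets and scaling, and carry no test.

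**Figure D5:**
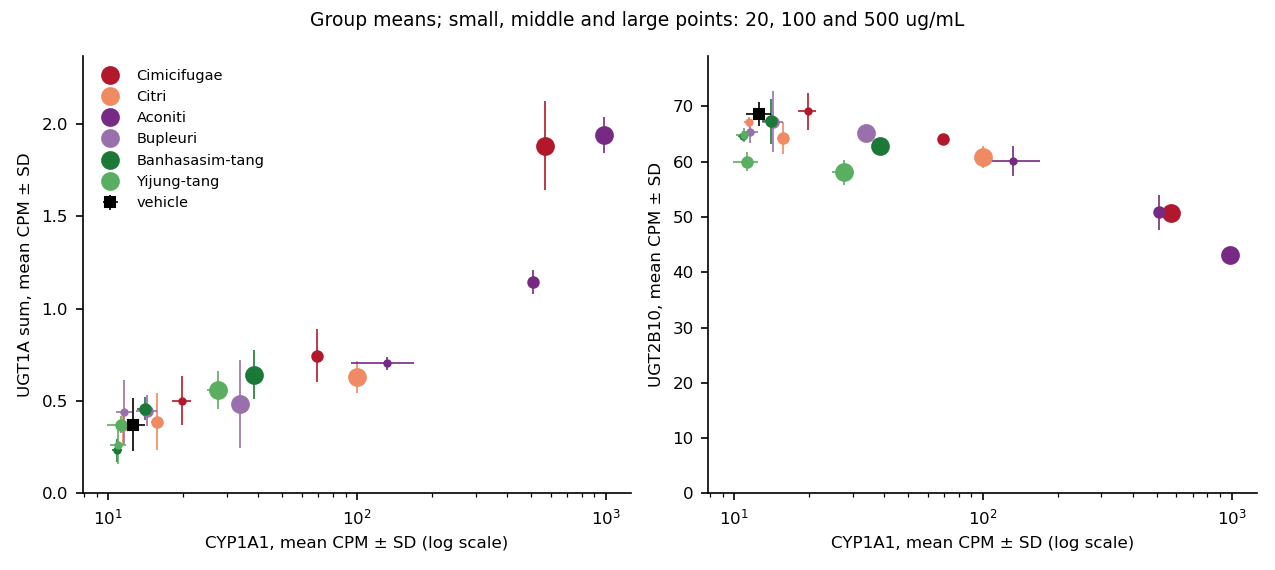
Mean CPM with SD of the UGT1A sum (left) and of UGT2B10 (right) against CYP1A1 on a log axis, for 18 groups with an extract (small, middle and large points for 20, 100 and 500 µg/mL) and for vehicle (square). Aconiti at 100 and 500 µg/mL and Cimicifugae at 500 µg/mL hold the 3 highest CYP1A1 levels, the 3 highest UGT1A sums and the 3 lowest UGT2B10 levels.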

How the data were processed

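Messenger RNA of HepG2 cells was sequenced on an MGIseq instrument (paired ends, directional kit, per the labels' protocols). The authors deposited expected counts per gene, which RSEM 1.3.3 estimated after STAR 2.7.3a alignment and trimming with Trim Galore 0.6.5, per the submitters' processing notes. The annotation release they used is not given in the sources used here, and 57055 of 60675 gene IDs matched GENCODE release 29. Of the nonzero values, 24.5% were not whole, and counts were rounded before testing. The deposited table also holds 207 columns of no sample listed here, which were not used.

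All 57 replicated libraries (19 groups of 3) entered 1 edgeR 4.0.16 quasi-likelihood fit in R 4.3.3 with TMM scaling (factors 0.898 to 1.04) and filterByExpr, which left 16093 genes. P-values were adjusted over all of them by Benjamini-Hochberg, with a threshold of 0.05, and the SE is the absolute log2 fold change over the root of F. Summed UGT rows were tested in a second fit in which they replaced their members, except UGT2B4 and UGT2B7, which stayed beside the sums. Where single libraries were left out, the sums were tested beside all rows of the table. The fit was tested on simulated data with known changes. Exact Poisson intervals cover counting error only. DESeq2 1.42.0, other scalings and filters, a GC correction, a replicate block and leaving out each library were tried as alternatives.

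Replicate numbers come from the labels. By a rule that every same-numbered pair correlates above 0.1, they paired libraries in 500 against 20 µg/mL of Aconiti (lowest r = 0.104) and Banhasasim-tang (0.108), and in 100 against 20 µg/mL of the same extracts (0.205 and 0.167). The rule also held between Aconiti and Bupleuri at 500 µg/mL (0.112).

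The members and gene lists were chosen with earlier results of these data known. From each list the text names called genes with the smallest p, at most 4 per list and comparison, and UGDH with Cimicifugae is given outside that rule after its value was seen. The most alike genes are the top 3 by Pearson correlation among protein-coding genes with a mean of at least 5 CPM.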

Additional observations from a re-analysis of the deposited data

Results flagged for a closer look

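In 6 cases the effect of 500 over 20 µg/mL differed between extracts of a set by an interaction term in the edgeR fit. For UGT2B10 the difference in log2 fold change was -0.30 ± 0.07 between Cimicifugae and Citri (adjusted p = 0.000385) and -0.47 ± 0.07 between Aconiti and Bupleuri (adjusted p = 6.52e-07). For the UGT2B sum it was -0.22 ± 0.06 between Cimicifugae and Citri (adjusted p = 0.00648) and -0.35 ± 0.06 between Aconiti and Bupleuri (adjusted p = 3.63e-05). For UGT2B4 it was -0.81 ± 0.21 between Aconiti and Bupleuri (adjusted p = 0.00609). For the UGT1A sum it was 1.27 ± 0.40 between Aconiti and Bupleuri (adjusted p = 0.0320), a call that was lost when replicate 2 of Bupleuri or Aconiti at 500 µg/mL, or replicate 2 or 3 of either at 20 µg/mL, was left out.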

How the results depend on the processing

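Of 4243 alternative values for 324 results, 4053 stayed on their side of the threshold, 164 lost a call, 25 gained one and 1 called value changed sign. Fits in which a row did not pass the filter gave no value and are not in this tally. With only the libraries compared and vehicle, 10 values of UGT1A1 stayed and 1 lost a call. For the UGT1A sum these were 24 and 2, where UGT2A3 had 30 that stayed. UGT1A1, the UGT1A sum and UGT2B11 had no value under the filter at a mean CPM of 1 or more. Of the 4053, 184 values that were not called changed sign, among them the UGT1A sum of Bupleuri at 500 over 20 µg/mL (down to -0.13 without replicate 1 at 20 µg/mL). Where a call changed, the cause was not tested. The UGT1A sum of Yijung-tang at 500 over 20 µg/mL gained its call with the GC trend removed (1.11), and ran from 0.88 to 1.46 with single libraries left out. For the UGT2B sum against vehicle, removing the GC trend left -0.10 for Citri, -0.093 for Yijung-tang and -0.041 for Banhasasim-tang at 500 µg/mL, all no longer called, and turned Banhasasim-tang at 20 µg/mL to 0.023. For Bupleuri at 500 µg/mL it was called (-0.11) with only the libraries compared. The UGT1A sum of Banhasasim-tang at 500 µg/mL against vehicle lost its call with no filter (0.81), with only the libraries compared (0.80) and by DESeq2 (0.81), and ran from 0.51 to 1.049 with single libraries left out. The difference in dose effect of the UGT1A sum between Aconiti and Bupleuri lost its call with no filter (1.26), with only both extracts (1.27) and by DESeq2 (1.28), and ran from 0.93 to 1.58 with single libraries left out. Between Cimicifugae and Citri it ran from 0.90 to 1.28.

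With the replicate block the UGT1A sum at 500 over 20 µg/mL was 1.46 with Aconiti and 1.46 with Banhasasim-tang, and the block changed 1 call of a UGT in all, UGT1A1 with Aconiti at 20 µg/mL against vehicle (1.26, edgeR adjusted p = 0.0473), where the numbers do not pair the libraries.

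Counts of all genes called moved most against vehicle, where removing the GC trend left 539 to 2791 genes in 13 comparisons that had 3051 to 5358 without it. It also gave 62 against 26 for Bupleuri and 325 against 200 for Yijung-tang at 100 over 20 µg/mL, and 430 against 265 for Citri at 500 over 20 µg/mL. With no filter the counts at 100 over 20 µg/mL were 69 against 2 for Banhasasim-tang, 149 against 26 for Bupleuri, 391 against 207 for Cimicifugae, 58 against 4 for Citri and 386 against 200 for Yijung-tang. With only the libraries compared and vehicle those were 6 for Banhasasim-tang, 3 for Bupleuri, 330 for Cimicifugae, 89 for Yijung-tang and, by edgeR, 0 for Citri, where 817 genes had an unadjusted p under 0.05. The same setting gave 229 against 606 for Yijung-tang at 500 over 20 µg/mL, 3465 against 5254 for it at 500 µg/mL against vehicle, and 3014 against 4576 for Banhasasim-tang at 20 µg/mL against vehicle. DESeq2 gave 9 against 4 for Citri at 100 over 20 µg/mL.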
